A study of Mus musculus with 60 samples.

Results

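Primary hepatocytes from mice whose Met gene is deleted by Alb-Cre were compared after 2 h and after 0.5 h of hepatocyte growth factor (HGF). The comparison took every sample titled as Met knock-out, treated, at 2 h or at 0.5 h, which gave 6 of the 30 replicates of the series, 3 per time, on 12 of its 60 two-colour arrays. Each replicate was hybridised with Cy5 and Cy3 exchanged, against RNA pooled from wild-type hepatocytes, and is given here as the mean of both arrays after each was centred on its median. Both KO groups came from male mice of 9-10 weeks, genotype Alb-Cre +/-; Met Fl/Fl, strain label 129SV/C57BL6, and differed in the time of HGF, 2 h or 0.5 h. The WT groups used beside them are Cre controls with the strain label C57BL, at the same times, so strain and genotype changed together, and the pooled RNA is also labelled C57BL. KO and WT groups at 0, 12 and 24 h enter the estimate of spread. Hepatocytes were plated with serum, moved to serum-free medium and given HGF the next day. The dose is written as 50 ng/ml in one label and 50 nM in another. Replicates were cultures from individual mice, and the labels do not say whether the 2 h and 0.5 h cultures share mice. No untreated cultures of 0.5 or 2 h were analysed here, so HGF and time in culture changed together.

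HGF is a secreted factor that acts through the receptor tyrosine kinase Met, which signals to the MAP kinase and PI3 kinase pathways. In hepatocytes it is known for inducing immediate early genes, cell spreading and motility, and for priming cell division. Alb-Cre acts in hepatocytes, so other liver cells that remain in such a culture keep Met. The comparison sets a later against an early time of HGF in hepatocytes whose receptor gene is deleted.

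A value is a log2 ratio to the pooled RNA, so that 0 is the level of the pool and a difference of 1 is 2-fold. The labels do not state which RNA is the numerator. The direction used, cultured sample over pool, is likely because Cyp2e1, a P450 enzyme that hepatocytes lose in culture, averaged 0.19, -0.93 and -2.02 in KO cells at 0, 12 and 24 h. Cyp2f2, Cyp2c29 and Cyp1a2 fell in the same order over these times, and this direction is used throughout. The sign of the Cy3 arrays is not stated either. Cyp2e1 averaged 0.52, -0.63 and -1.57 on the Cy5 arrays alone and -0.14, -1.24 and -2.45 on the Cy3 arrays alone over these times, and both were read as running the same way. This bears on the arrays at 0, 12 and 24 h and does not show the orientation of those at 0.5 and 2 h. For these, 100 probes were taken with large values of 1 sign on both dyes, as read here, in the other KO groups. In the KO 0.5 h replicates 91% to 100% of them kept that sign on the Cy5 arrays and 98% to 99% on the Cy3 arrays. In the KO 2 h replicates it was 70% to 74% and 78% to 81%. These shares compare the times with each other and do not show the numerator. With the sign of all Cy3 arrays turned, 4208 probes were called and the direction of 28 of the 55 genes examined singly in KO cells was reversed. Differences are given ± the standard error of the limma fit, and "called" means a Benjamini-Hochberg adjusted p under 0.05 over all probes tested.

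The targeted gene did not separate the samples. Met was at 0.03, -0.05 and 0.29 in KO cells at 2 h, against 0.25, 0.17 and 0.41 at 0.5 h. In WT cells Met was at -0.17, 0.04 and -0.04 at 2 h, against 0.25, 0.21 and 0.41 at 0.5 h. The genotypes overlap at both times. The labels do not place the probe inside or outside the deleted exons, so Met RNA checks neither the deletion nor the labels.

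The arrays of the KO groups differed by dye. Within a replicate, the Cy5 and Cy3 arrays correlated over probes at -0.13, -0.03 and -0.10 at 2 h, against -0.68, -0.65 and -0.49 at 0.5 h. Array SDs were 0.29 to 0.47 at 2 h and 0.64 to 0.90 at 0.5 h. Arrays of one dye correlated at -0.14 to 0.13 between the KO 2 h and KO 0.5 h groups, and at 0.29 or more within a group. KO 2 h replicate 3 lies in an older run of array numbers than the other 5 replicates. A new run was counted at each gap of more than 700. Within the newer run the 0.5 h and 2 h arrays lie in separate blocks of numbers, so time and array block changed together. The Cy5 array of WT 0 h replicate 3 correlated below -0.3 with 19 of the other 29 Cy5 arrays. It enters only the estimate of spread, and without that replicate 195 probes were called in place of 108.

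Of 18385 probes tested, 108 were called between 2 h and 0.5 h of HGF in KO cells, 49 higher (0.267%) and 59 lower (0.321%), which is 0.587% of those tested. The interferon-response genes Mx2 and Usp18, the caspase gene Casp4 and the death receptor gene Fas rose. Alpha-class glutathione transferases, the lipid desaturase Scd1, both cytoplasmic actins and the iron hormone Hamp fell. The lists of 30 immediate early factors and of 17 genes of the HGF and Met axis had no called member, which is near the share over all probes. The 108 probes comprise 87 with 1 gene symbol and 21 without one, and 42 changed by more than 2-fold. Of the 108, 102 (94.4%) had a difference of the same sign on the Cy5 arrays and on the Cy3 arrays, against 28.5% of all probes tested. The calls were made on the mean of both dyes, which favours such probes, so this share describes the calls and does not support them. The 3 replicates of one time did not overlap the 3 of the other for 88 of the 108, against 22% of all probes tested. Leaving out KO 2 h replicate 1, 2 or 3 left 24, 20 and 67 probes called, and leaving out KO 0.5 h replicate 1, 2 or 3 left 23, 28 and 19, so each single replicate moves the count by more than 1.5 times. Of the 36 called genes examined singly, 21 were not called without KO 2 h replicate 3, and 27 to 32 without any one of the other 5. The 67 probes without KO 2 h replicate 3 come from one run of array numbers, where the 2 times still lie in separate blocks. Of these 67, 50 are among the 108.

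**Figure D1:**
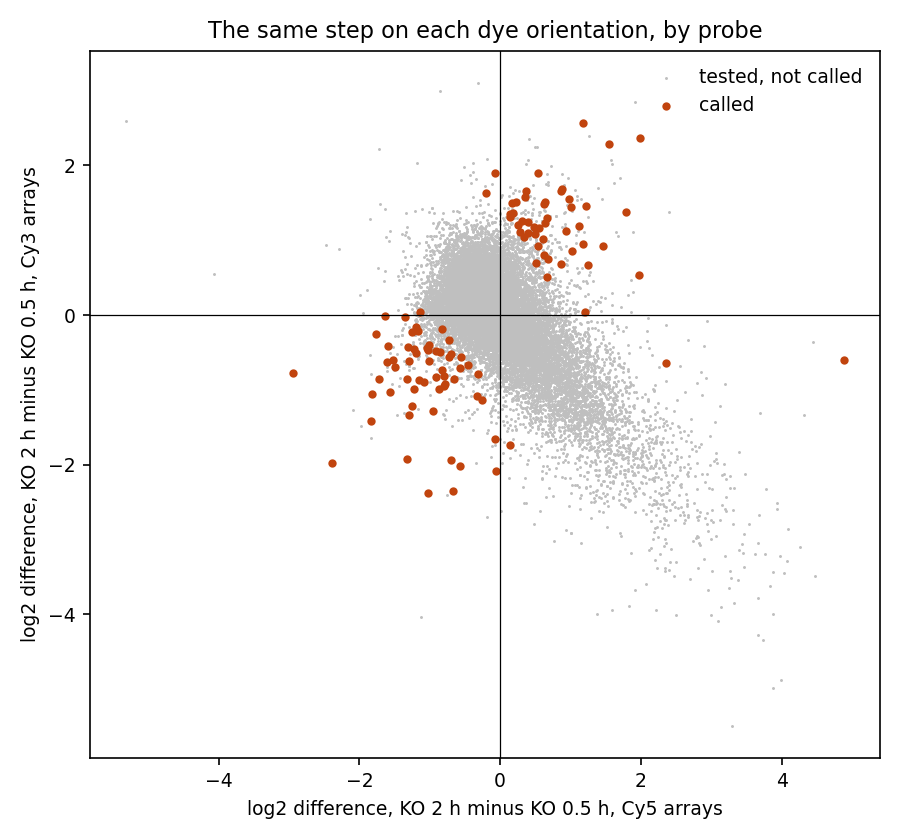
Log2 difference of KO 2 h minus KO 0.5 h for each of the 18385 probes tested, on the Cy5 arrays (horizontal) and on the Cy3 arrays (vertical). Over all probes the cloud falls from upper left to lower right (r = -0.68). Of the 108 called probes (coloured), which were called on the mean of both dyes, 102 lie in the lower left and upper right quadrants, where both dyes have the same sign.

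The opposite differences on the dyes concern the whole array. Over probes, the difference on the Cy5 arrays correlated at -0.68 with that on the Cy3 arrays, and its SD of 0.77 on Cy5 and 0.78 on Cy3 fell to 0.30 in the mean of both. In WT cells the same correlation was 0.17. Over probes, the difference between the dyes in KO 2 h correlated at -0.06 with that in KO 0.5 h. With that in WT 2 h it correlated at 0.57. The probe with the largest difference, 2.73 ± 0.24, has no gene symbol and is among the 6 exceptions, with 4.88 on Cy5 and -0.60 on Cy3.

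Of 32 pathway lists, the interferon response had the median difference furthest from 0 with both dyes averaged as read here. It ranked 5th by that distance on the Cy5 arrays alone and 13th with the sign of the Cy3 arrays turned, where its median was -0.32. Interferons bind receptors on the cell surface, and the STAT and IRF factors they activate switch on genes with an interferon-stimulated response element in their promoters. The products block viral replication or load peptides on class I antigen-presenting molecules. Of 28 listed genes 22 were measured, and 2 were called higher and none lower, with 21 of 22 differences above 0. The list's median difference was 0.81, against -0.01 over all 12375 genes tested, of which 36 were called higher and 49 lower. At an unadjusted p under 0.05 there were 18 of 22 members (81.8%), against 13.5% of all genes.

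Mx2, an interferon-induced GTPase of the dynamin family, was at 0.03, 0.16 and 0.17 in the KO 2 h replicates, against -1.05, -1.31 and -1.33 in the KO 0.5 h replicates. The replicates do not overlap, and Mx2 was 1.34 ± 0.20 higher at 2 h (adjusted p = 0.0024, limma), with 1.22 on Cy5 and 1.46 on Cy3. Usp18, which strips the ubiquitin-like Isg15 from proteins and dampens interferon receptor signalling, was at -0.19, 0.14 and 0.08 at 2 h, against -0.71, -0.93 and -0.84 at 0.5 h. Every 2 h replicate again lay above every 0.5 h replicate, and the difference was 0.84 ± 0.18 (adjusted p = 0.034, limma). It was called on the Cy3 arrays alone (adjusted p = 0.016) but not on the Cy5 arrays (0.18, adjusted p = 0.64). Mx2 was called whichever of the 6 replicates was left out, whereas Usp18 was called in none of these fits (without KO 2 h replicate 3, 0.80 and adjusted p = 0.094).

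Further members, chosen for printing after their values were seen, had larger standard errors and did not pass. These errors draw on the spread within all 10 groups, not on the KO 2 h and 0.5 h replicates alone. Oas1a, an RNA-sensing oligoadenylate synthetase, was at -0.06, -0.18 and -0.13 at 2 h, against -1.78, -1.95 and -1.93 at 0.5 h, a difference of 1.77 ± 0.43 (adjusted p = 0.052). It passed on each dye alone (adjusted p = 0.018 on Cy5 and 0.047 on Cy3) but not when any 1 of the 6 KO replicates was left out (adjusted p = 0.11 to 0.16). Ifit1, which binds viral RNA, was at 0.39, 0.32 and -0.00 at 2 h, against -1.31, -1.93 and -1.54 at 0.5 h, a difference of 1.83 ± 0.60 (adjusted p = 0.16). Isg15, a ubiquitin-like modifier, differed by 0.98 ± 0.25 (adjusted p = 0.064). In 17 of the 22 members all 3 replicates of both times were measured and every 2 h replicate lay above every 0.5 h replicate, as for 9.88% of all probes tested, and Irf7 was so with 2 replicates at 2 h. The difference was above 0 on both dyes in 17 members. Gbp3 had the only difference below 0, at -0.61 ± 0.61 (adjusted p = 0.76).

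**Figure D2:**
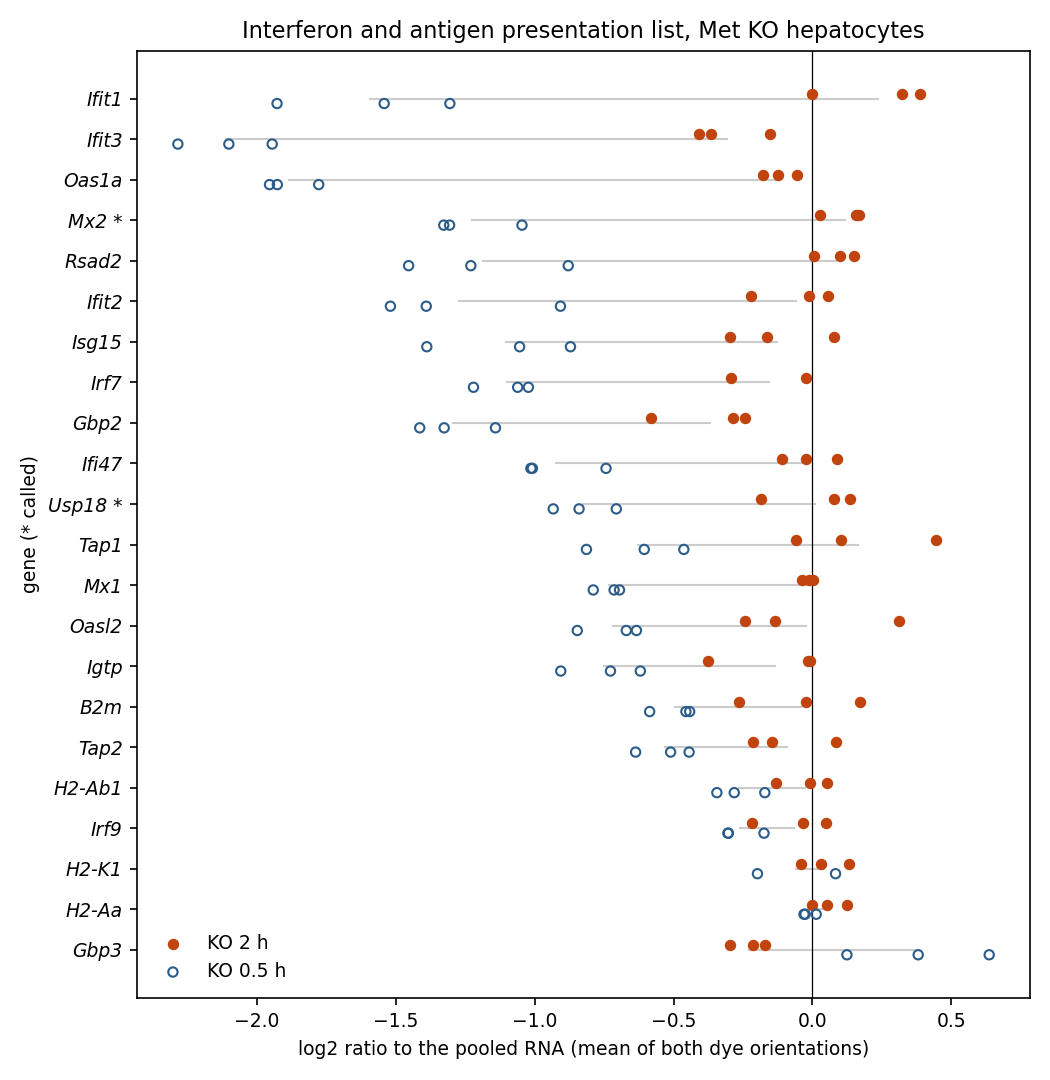
Log2 ratio to the pooled RNA of the 22 measured interferon and antigen presentation genes in the 3 KO 2 h replicates (filled) and the 3 KO 0.5 h replicates (open), with a grey line between the group means. In 18 genes all measured 2 h replicates lie to the right of all 0.5 h replicates. The 2 called genes, Mx2 and Usp18, carry an asterisk.

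The promoters of 4 members with large differences, none of them called, are shown because they carry the element through which interferon-activated factors bind. Of these, Ifit3 differed by 1.80 ± 0.59 (adjusted p = 0.16). They are RefSeq promoters on GRCm38.p6, from 250 bases before to 50 after the gene's start, 5′ to 3′ on the gene's strand. Capitals mark matches, on either strand, to GAAA followed after any 2 bases by GAAA, the core of the interferon-stimulated response element (TTTC and TTTC on the other strand).
Isg15: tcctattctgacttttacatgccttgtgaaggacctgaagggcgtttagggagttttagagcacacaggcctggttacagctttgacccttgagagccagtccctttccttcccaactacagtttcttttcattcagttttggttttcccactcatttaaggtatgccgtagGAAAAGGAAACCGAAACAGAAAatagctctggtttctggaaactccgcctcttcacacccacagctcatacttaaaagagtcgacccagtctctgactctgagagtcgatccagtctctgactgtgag
Oas1a: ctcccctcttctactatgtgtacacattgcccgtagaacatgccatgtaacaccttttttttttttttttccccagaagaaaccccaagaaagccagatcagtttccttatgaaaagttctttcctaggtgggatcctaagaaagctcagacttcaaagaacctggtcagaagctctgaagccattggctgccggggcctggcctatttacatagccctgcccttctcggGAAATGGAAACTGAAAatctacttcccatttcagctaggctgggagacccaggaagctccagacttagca
Ifit1: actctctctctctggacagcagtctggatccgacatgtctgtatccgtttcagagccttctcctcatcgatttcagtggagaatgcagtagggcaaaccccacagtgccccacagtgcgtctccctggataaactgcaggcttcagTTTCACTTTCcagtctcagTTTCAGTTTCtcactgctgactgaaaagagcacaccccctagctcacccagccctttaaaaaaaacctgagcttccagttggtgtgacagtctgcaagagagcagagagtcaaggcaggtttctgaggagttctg
Ifit3: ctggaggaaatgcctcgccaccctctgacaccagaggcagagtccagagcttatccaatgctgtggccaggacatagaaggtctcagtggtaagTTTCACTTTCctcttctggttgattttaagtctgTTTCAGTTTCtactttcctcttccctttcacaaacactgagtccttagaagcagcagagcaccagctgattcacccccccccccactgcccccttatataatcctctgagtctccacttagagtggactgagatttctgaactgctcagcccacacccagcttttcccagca
Isg15 lies at chr4:156200769-156201068 on the minus strand, with 3 overlapping matches 78 to 57 bases before the start. Oas1a lies at chr5:120907476-120907775 on the minus strand, with 2 overlapping matches 20 to 5 bases before the start. Ifit1 (chr19:34640639-34640938, plus strand) and Ifit3 (chr19:34583279-34583578, plus strand) hold 2 separate matches each, read on the other strand. Of the 22 measured members 17 had a promoter in the table, and 9 of these 17 (52.9%) held the motif. It was held by 3.44% of all 32851 promoters and 3.70% of the 9772 tested genes with one. Mx2 and Usp18, the 2 called members, had no promoter there and do not enter the count. Gbp3, the member with a difference below 0, held 2 matches. Ifit2, with a larger difference than Isg15 (1.21 ± 0.37, adjusted p = 0.12), had a promoter there and held no match. The 4 promoters shown were chosen for holding the motif, so they do not tie it to large differences. The list was drawn up from known interferon genes, so its share describes the list and does not support the array result. Among genes called higher 5 of 29 with a promoter held it (17.2%), namely Irgm1, Mitd1, Serpina3a, Tmem140 and Trim12a, and among genes called lower 1 of 40 (2.5%), Fbln5. A match describes these letters and is no measurement of binding.

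Some called genes outside the list are known as interferon-induced or innate immune genes. They were picked from the calls after these were known, so they form no counted group. Samhd1, which breaks down the nucleotides that viruses need, was at 0.17, -0.11 and 0.09 at 2 h, against -1.04, -1.33 and -1.08 at 0.5 h, a difference of 1.20 ± 0.26 (adjusted p = 0.032). Trafd1, a feedback inhibitor of innate immune signalling, rose by 1.03 ± 0.23 (adjusted p = 0.042), and Casp4, an inflammatory caspase that senses bacterial lipopolysaccharide, by 1.08 ± 0.21 (adjusted p = 0.019). The death receptor Fas was at 1.18, 1.29 and 0.83 at 2 h, against -0.12, -0.08 and -0.29 at 0.5 h, and rose by 1.26 ± 0.28 (adjusted p = 0.041). It was the 1 called gene of 23 in the list of apoptosis regulators, whose median was 0.003. Plac8 rose by 0.96 ± 0.21 (adjusted p = 0.048), and the immunity-related GTPase Irgm1 by 0.82 ± 0.17 (adjusted p = 0.030). Without KO 2 h replicate 3, Casp4 was still called, whereas Samhd1, Trafd1, Fas and Plac8 had adjusted p = 0.084, 0.086, 0.054 and 0.10. On the Cy5 arrays alone Casp4 was not called (0.64, adjusted p = 0.064). On the Cy3 arrays alone Samhd1, Trafd1 and Plac8 were not called (adjusted p = 0.084, 0.057 and 0.19). Fas was called on each dye alone. The interferon-induced chemokines Cxcl9 and Cxcl10 differed by 1.06 ± 0.25 and 1.20 ± 0.32 and did not pass (adjusted p = 0.051 and 0.078). They belong to the list of NF-kB targets and chemokines, in which none of 21 members was called, 12 were above and 9 below 0, and the median was 0.04.

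Ifnar1, a subunit of the receptor for type I interferons, went the other way. It was at -0.43, -0.07 and -0.24 at 2 h, against 0.56, 1.32 and 0.60 at 0.5 h, and fell by 1.07 ± 0.23 (adjusted p = 0.044). The difference was -0.06 on the Cy5 arrays and -2.08 on the Cy3 arrays, so it rests on one dye.

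The interferon list was near the pool's level at 2 h and, in all but 1 KO replicate, further below it at other times. Its median level over members was -0.73, -0.57 and -0.05 in the untreated KO replicates, -0.77, -0.93 and -0.78 at 0.5 h, -0.05, -0.00 and -0.00 at 2 h, -1.30, -1.62 and -1.07 at 12 h and -1.17, -0.85 and -0.44 at 24 h. In WT cells the medians at 2 h, -0.23, -0.01 and -0.04, were also nearest to 0, beside -0.46, -0.58 and -0.44 at 0.5 h. The untreated KO replicate at -0.05 shares its run of array numbers with KO 2 h replicate 3, while the other KO 2 h replicates share theirs with the KO 0.5 h replicates. Levels at 2 h were nearer to the pool over the whole array too: the 2 h mean lay closer to 0 than the 0.5 h mean for 63 of the 108 called probes (58.3%) and for 60.8% of the probes tested. The part of the lower array spread at 2 h in the interferon result was not tested. With all arrays brought to one spread the list's median difference was 0.59 and 4 members were called higher. It was 0.80 without KO 2 h replicate 3, with 1 member called, 0.52 on Cy5 alone and 1.22 on Cy3 alone.

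**Figure D3:**
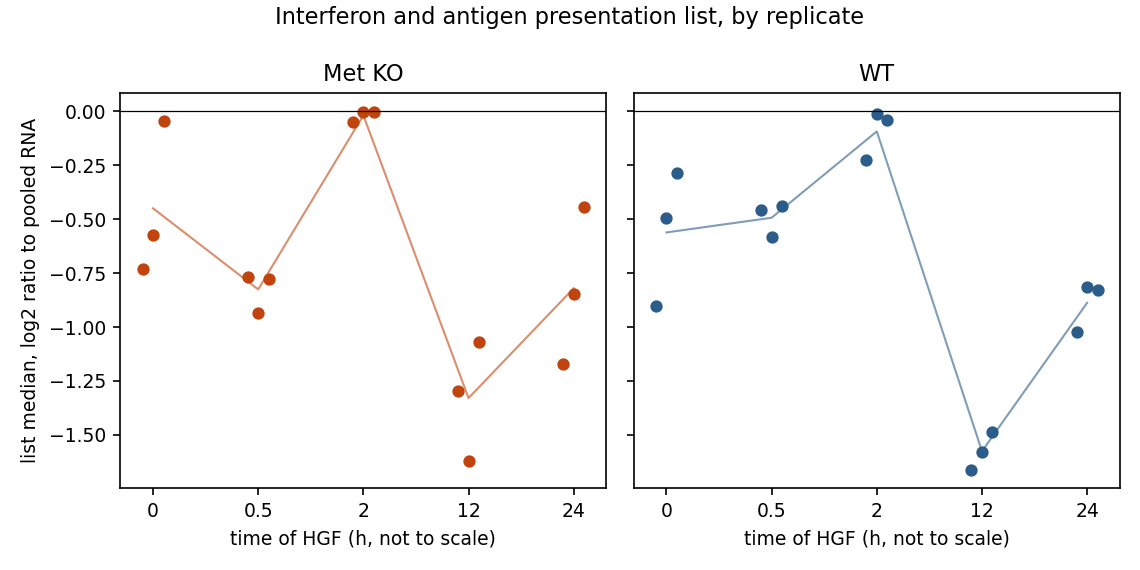
Median log2 ratio to the pooled RNA over the 22 interferon and antigen presentation genes in each replicate (points) and their mean (line) by time of HGF in Met KO (left) and WT hepatocytes (right). The KO 2 h replicates lie at -0.05 to -0.00, above all KO 0.5 h replicates at -0.93 to -0.77, and the lowest replicate of each genotype is at 12 h (-1.62 in KO, -1.66 in WT).

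Markers of immune and other liver cells had no called member. Over all 12375 genes tested 36 were called higher and 49 lower, so lists this short say little by holding no call. No gene was called among 9 Kupffer cell markers (median difference 0.10), 8 lymphocyte markers (0.08), 7 endothelial markers (0.09), 7 stellate cell markers (-0.07), 7 bile duct markers (-0.09) or 3 red cell markers (-0.06). Replicate medians of the Kupffer list ran from -0.07 to -0.00 at 2 h, against -0.08 to 0.01 at 0.5 h. The part of such cells in the result was not tested further, and ratios to hepatocyte RNA give no level of a marker. In bulk RNA, fewer cells of a type and less RNA per cell cannot be told apart. The median of 9 hepatocyte markers was at -0.04, -0.02 and 0.20 in the KO 2 h replicates, against -0.11, -0.12 and -0.05 at 0.5 h, near the hepatocyte pool. None of them was called, and Alb, the main plasma protein of hepatocytes, differed by 0.06 ± 0.09 (adjusted p = 0.86). Single hepatocyte markers differed by -0.70 to 0.89, with 5 above and 4 below 0. At an unadjusted p under 0.05 there were 5 of 9 (55.6%), against 13.5% of all genes, so the list was not uniformly flat.

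**Figure D4:**
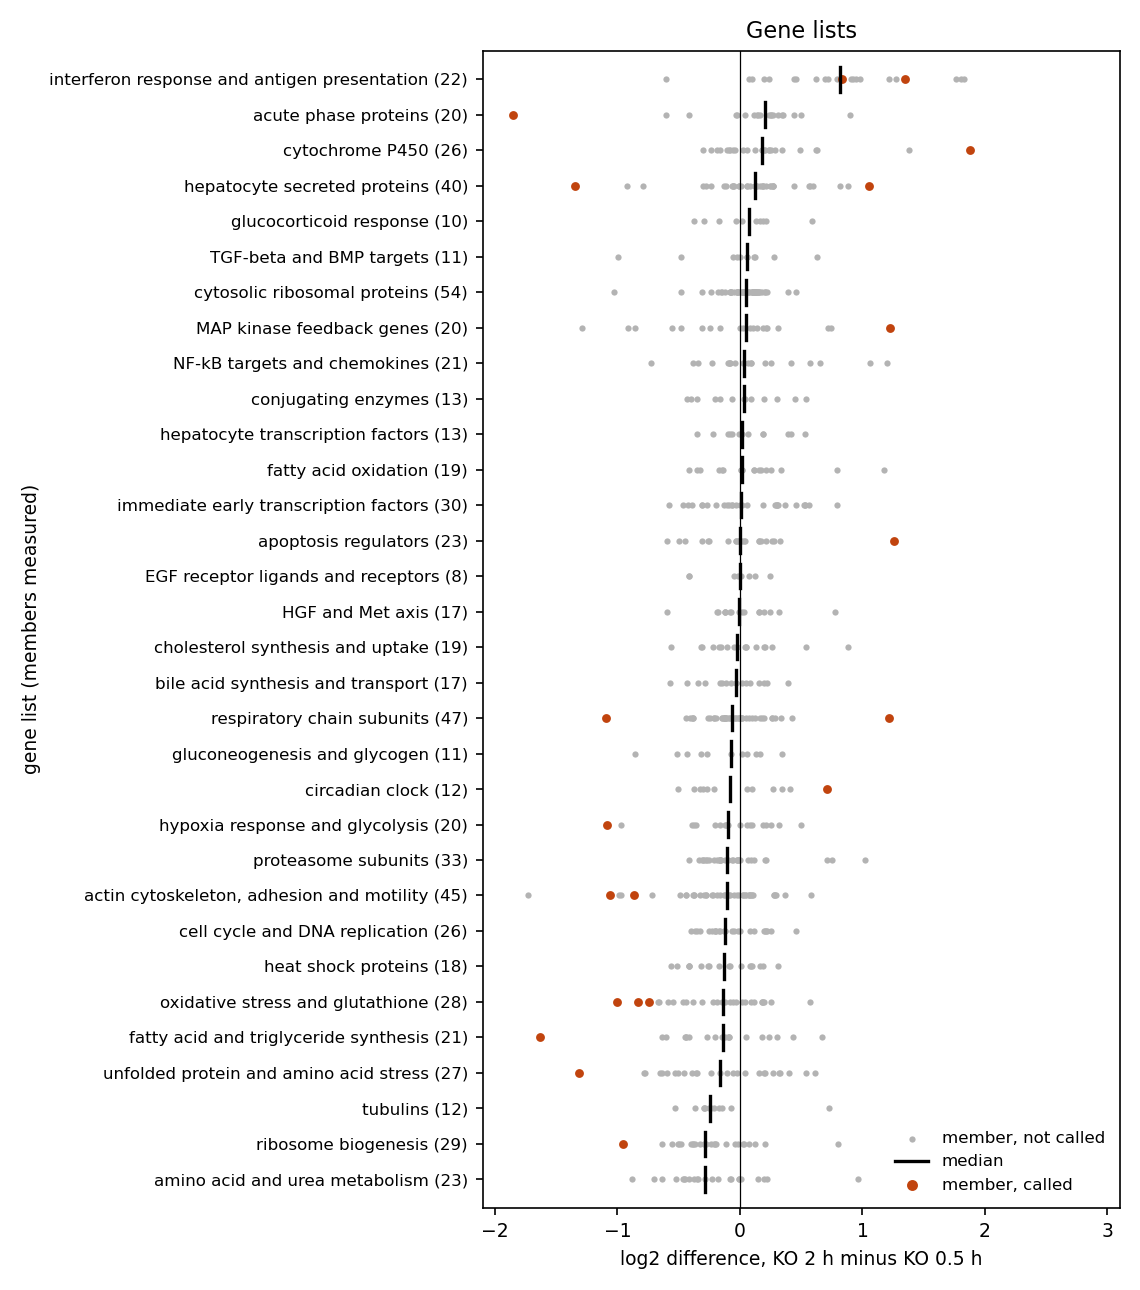
Log2 difference of KO 2 h minus KO 0.5 h for the measured members (points, called members coloured) and the median (bar) of 32 pathway lists, ordered by median, with the number of members measured in brackets. With the Cy3 arrays as read here, the interferon list has the highest median, 0.81, and ribosome biogenesis and amino acid metabolism the lowest, both -0.28. With the sign of the Cy3 arrays turned, these medians are -0.32, -0.29 and -0.27.

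Glutathione transferases fell at 2 h. Of 28 measured members of the oxidative stress and glutathione list, 3 were called lower and none higher, all of them alpha-class glutathione transferases, which couple glutathione to electrophiles. Gsta2 was at 0.27, 0.55 and 0.11 in KO cells at 2 h, against 1.35, 1.18 and 1.39 at 0.5 h. It fell by 1.00 ± 0.15 (adjusted p = 0.0026), with -1.59 on Cy5 and -0.42 on Cy3. Gsta1 fell by 0.84 ± 0.17 (adjusted p = 0.028) and Gsta4 by 0.75 ± 0.15 (adjusted p = 0.027). The 3 genes are close relatives whose probes may share RNA, and they count as fewer than 3 independent observations. None of them was called on the Cy3 arrays alone or after arrays were brought to one spread, where Gsta2 had -0.59 (adjusted p = 0.20), and Gsta1 was lost without KO 2 h replicate 3 (adjusted p = 0.066).

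Slc7a11, the cystine importer that feeds glutathione synthesis, was the 1 called gene of 27 in the list of unfolded protein and amino acid stress. It was at -0.44, -0.55 and -1.15 at 2 h, against 0.37, 0.70 and 0.73 at 0.5 h. It fell by 1.32 ± 0.29 (adjusted p = 0.040), and without KO 2 h replicate 3 it differed by -1.10 (adjusted p = 0.14). On the Cy5 arrays alone Slc7a11 differed by -0.70 (adjusted p = 0.21). Cbr2, a carbonyl reductase, fell by 1.11 ± 0.22 (adjusted p = 0.023), with -1.22 on Cy5 and -0.99 on Cy3. Cyp3a41a, a P450 of the large Cyp3a family, was at 0.80, 1.24 and 1.29 at 2 h, against -0.48, -1.01 and -0.79 at 0.5 h, and rose by 1.88 ± 0.43 (adjusted p = 0.045). It was the only called gene among 26 P450 genes, has near-identical relatives, and was lost without KO 2 h replicate 3 (adjusted p = 0.12).

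Lipid synthesis had 1 called gene of 21. Scd1, the desaturase that makes monounsaturated fatty acids, was at 0.15, -0.60 and -0.09 at 2 h, against 1.27, 1.43 and 1.66 at 0.5 h. The replicates are far apart, and Scd1 fell by 1.63 ± 0.31 (adjusted p = 0.018), with -1.84 on Cy5 and -1.42 on Cy3. It was also called without KO 2 h replicate 3. The list's other 20 members did not pass, and its median was -0.14.

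Both cytoplasmic actin genes fell. Actg1 was at 0.43, 0.51 and 0.33 in KO cells at 2 h, against 1.36, 1.57 and 1.52 at 0.5 h, and fell by 1.06 ± 0.22 (adjusted p = 0.029). A second Actg1 probe differed by -0.96 ± 0.25 and did not pass (adjusted p = 0.072). Actb was at -0.03, 0.03 and -0.05 at 2 h, against 0.73, 0.86 and 0.95 at 0.5 h, and fell by 0.86 ± 0.20 (adjusted p = 0.046). The second Actb probe differed by only -0.18 ± 0.21 (adjusted p = 0.80), so the probes of this gene disagree in size. These were 2 of 45 measured members of the list on actin, adhesion and motility, none was called higher, and the median was -0.11. Espn, which bundles actin filaments in microvilli, fell by 1.30 ± 0.23 (adjusted p = 0.014). Without KO 2 h replicate 3, Espn was still called, whereas Actg1 and Actb had adjusted p = 0.084 and 0.11. With arrays brought to one spread Actg1 had -0.58 (adjusted p = 0.18), while Actb and Espn were called. On the Cy3 arrays alone Actb was not called (adjusted p = 0.057).

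The lists of ribosome biogenesis and of amino acid and urea metabolism had the lowest medians, with few calls. In ribosome biogenesis 23 of 29 members were below 0 (median -0.28) and 1 was called, Ppan, a factor for the large ribosomal subunit, at -0.95 ± 0.22 (adjusted p = 0.049), which was lost without KO 2 h replicate 3 (adjusted p = 0.094). In amino acid and urea metabolism 18 of 23 members were below 0 (median -0.28) and none was called. The proline oxidase Prodh, with -0.88 ± 0.22 (adjusted p = 0.061), and the urea cycle enzyme Ass1, with -0.52 ± 0.14 (adjusted p = 0.073), came nearest. The medians depended on the dye, with -0.58 on Cy5 and -0.02 on Cy3 for ribosome biogenesis, and -0.53 and -0.02 for amino acid and urea metabolism. With arrays brought to one spread they were -0.22 and -0.08. Among cytosolic ribosomal proteins none was called and 35 of 54 were above 0 (median 0.05).

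Secreted proteins moved both ways. Of 40 measured members of the list of hepatocyte secreted proteins, 1 was called higher and 1 lower. Hc, complement component C5, was at -0.19, -0.25 and 0.08 in KO cells at 2 h, against -1.14, -1.25 and -1.14 at 0.5 h, and rose by 1.06 ± 0.24 (adjusted p = 0.045). Igfbp4, a binding protein for insulin-like growth factors, had values in 2 of 3 replicates at 2 h, -0.43 and -0.38, against 1.03, 0.80 and 1.01 at 0.5 h, and fell by 1.35 ± 0.27 (adjusted p = 0.032). Serpina3a, of the serine protease inhibitor family, rose by 1.27 ± 0.27 (adjusted p = 0.032). Without KO 2 h replicate 3, Hc and Serpina3a had adjusted p = 0.14 and 0.067. With arrays brought to one spread Hc was not called (adjusted p = 0.070), while Serpina3a was.

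Hamp encodes hepcidin, the hormone that blocks the cellular iron exporter. It was at 0.00, -0.11 and 0.12 at 2 h, against 2.23, 1.36 and 1.99 at 0.5 h, and fell by 1.85 ± 0.41 (adjusted p = 0.037). The difference was -2.94 on Cy5 and -0.77 on Cy3, and without KO 2 h replicate 3 it had adjusted p = 0.078. With arrays brought to one spread it had adjusted p = 0.062. Hamp was the only called member of 20 acute phase genes, whose median was 0.20. The matrix proteins Fbln5 and Fbln1 fell by 1.70 ± 0.33 and 1.24 ± 0.26 (adjusted p = 0.024 and 0.032). Their 2 h replicates were spread widely, with Fbln5 at -2.54, -1.14 and -1.09, against -0.20, 0.35 and 0.19 at 0.5 h.

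The respiratory chain list held a pair of genes from the same complex that moved in opposite directions. Uqcrb, a small subunit of the cytochrome bc1 complex, was at 1.36, 1.37 and 1.67 at 2 h, against 0.47, 0.01 and 0.26 at 0.5 h, and rose by 1.22 ± 0.27 (adjusted p = 0.038). Uqcrc1, a core subunit of that complex, was at -0.53, -0.62 and -1.29 at 2 h, against 0.10, 0.26 and 0.48 at 0.5 h, and fell by 1.09 ± 0.18 (adjusted p = 0.0086). The other 45 of 47 members were not called, and the median was -0.07. Uqcrb was lost without KO 2 h replicate 3 (adjusted p = 0.12) and on the Cy5 arrays alone (0.54, adjusted p = 0.18). Egln3, a prolyl hydroxylase that marks hypoxia-inducible factors for breakdown, was at 0.08, -0.07 and 0.25 at 2 h, against 1.43, 0.95 and 1.15 at 0.5 h. It fell by 1.09 ± 0.17 (adjusted p = 0.0051) and was the 1 called gene of 20 in the hypoxia and glycolysis list.

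Some regulators rose. Cish, a feedback inhibitor of cytokine receptors that use STAT5, was at -0.36, -0.11 and -0.33 at 2 h, against -2.18, -1.45 and -0.84 at 0.5 h. It rose by 1.23 ± 0.25 (adjusted p = 0.024) and was the 1 called gene of 20 in the list named MAP kinase feedback genes. Nfil3, a repressor tied to the circadian clock, was at 0.17, 0.26 and 0.19 at 2 h, against -0.71, -0.44 and -0.36 at 0.5 h, and rose by 0.71 ± 0.16 (adjusted p = 0.040). A second Nfil3 probe differed by 0.16 ± 0.15 (adjusted p = 0.72). Rdh10, which starts retinoic acid synthesis, rose by 1.26 ± 0.25 (adjusted p = 0.023). Galnt3, which starts mucin-type glycosylation, rose by 0.94 ± 0.19 (adjusted p = 0.024), and Pfdn5, a prefoldin chaperone subunit, by 0.96 ± 0.21 (adjusted p = 0.038). Naif1 fell by 1.12 ± 0.25 (adjusted p = 0.041). Trbv1, a T cell receptor segment, fell by 1.30 ± 0.28 (adjusted p = 0.036), while its other probes differed by 0.21 ± 0.28 and -0.03 ± 0.43. Of these genes Nfil3, Galnt3, Pfdn5 and Naif1 were not called without KO 2 h replicate 3, with adjusted p = 0.051 to 0.10. On the Cy5 arrays alone Galnt3, Pfdn5, Naif1 and Trbv1 were not called (adjusted p = 0.18, 0.53, 0.054 and 0.14). On the Cy3 arrays alone Rdh10 was not called (0.54, adjusted p = 0.43), against 1.98 on Cy5. With arrays brought to one spread Cish was not called (adjusted p = 0.068).

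The genes that HGF is known to induce early had no call. Of 30 immediate early transcription factors none was called, and the median difference was 0.01, with 15 members above and 15 below 0. Over all 12375 genes tested 36 were called higher and 49 lower, so no call in a list of this size is near the share of all genes. At an unadjusted p under 0.05 there were 6 of 30 members (20%), against 13.5% of all genes. In the HGF and Met axis it was 1 of 17 (5.88%). Fos differed by -0.00 ± 0.17, Junb by -0.03 ± 0.21, Egr1 by -0.47 ± 0.27, Myc by -0.42 ± 0.45 and Atf3 by 0.56 ± 0.18, with adjusted p = 0.16 to 1.00. Gadd45a, a stress-induced gene of that list, came nearest, with 0.79 ± 0.19 (adjusted p = 0.056). None of 17 genes of the HGF and Met axis was called, and the largest difference was that of Pik3r1, the regulatory subunit of PI3 kinase, 0.78 ± 0.23 (adjusted p = 0.11). The MAP kinase phosphatase gene Dusp6 differed by -0.31 ± 0.25 (adjusted p = 0.67), the clock gene Per1 by -0.38 ± 0.15 (adjusted p = 0.24) and Met by -0.19 ± 0.17 (adjusted p = 0.72). The signs of Met, Fos, Junb, Dusp6 and Per1 turned on the Cy3 arrays alone.

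Hbegf encodes a ligand of the EGF receptor that HGF induces in epithelial cells. In KO cells it was at -0.04, -0.04 and -0.28 at 2 h, against 0.30, 0.16 and 0.43 at 0.5 h, a difference of -0.42 ± 0.15 that did not pass (adjusted p = 0.22). In WT cells it was at 0.35 and 0.16 in 2 replicates at 2 h, against 1.54, 1.68 and 1.70 at 0.5 h, a fall of 1.39 (adjusted p = 8.5e-05). The KO and WT differences for Hbegf were 0.97 ± 0.23 apart, which narrowly missed the threshold (adjusted p = 0.053).

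Set beside the KO cells, WT cells had more probes called over the same interval of HGF with both dyes averaged. On each dye alone the order was the other way. On the Cy5 arrays 2051 probes were called in KO and 1455 in WT, and on the Cy3 arrays 2580 and 858. The 2 counts therefore do not rank the genotypes by the size of their response. With both dyes averaged, 2626 of 18511 probes were called in WT (14.2%), 1090 higher (5.89%) and 1536 lower (8.3%). The WT groups share no sample with the KO groups. Of 16795 probes tested in both genotypes, 104 were called in KO and 2368 in WT, and 41 in both, all 41 with the same sign. These 41 are 39.4% of the KO calls and 1.73% of the WT calls. Of the 104 KO calls, 90 (86.5%) had the same sign in WT, against 59.5% of all probes, and the 2 sets of differences correlated at 0.27 over probes. Scd1 and Actg1 fell in WT cells as well, by 1.45 and 1.48 (adjusted p = 0.0044 and 0.00038), and Mx2 and Usp18 rose by 0.89 and 0.78 (adjusted p = 0.0060 and 0.0076). The interferon list had 6 called members of 21 measured in WT, all higher, with a median of 0.31.

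**Figure D5:**
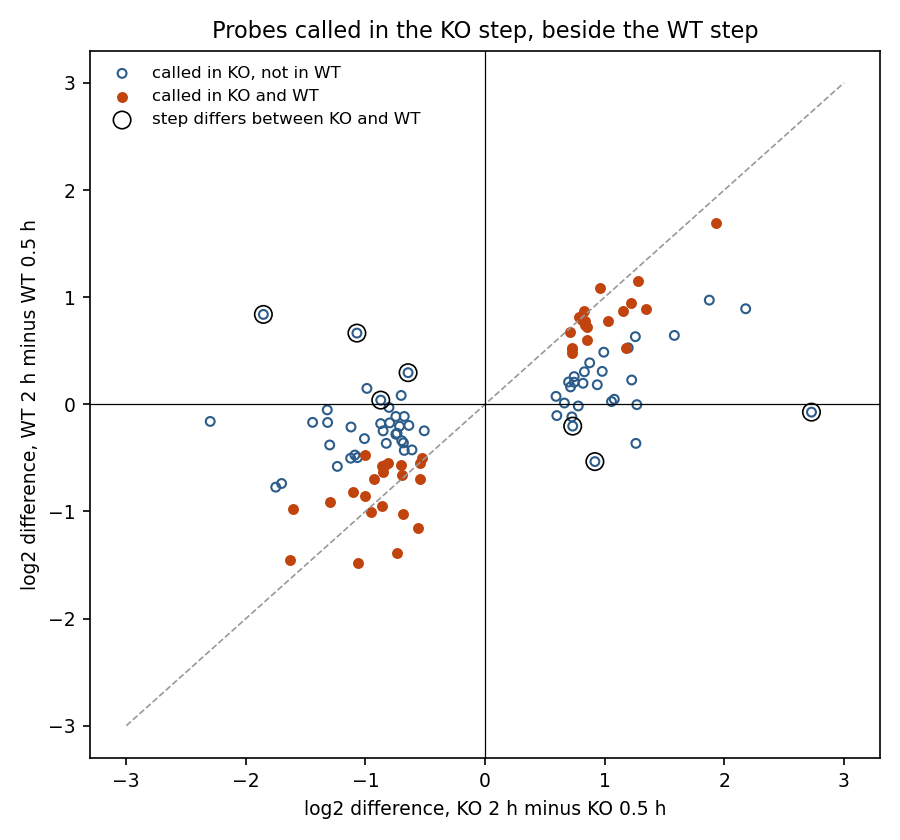
Log2 difference of 2 h minus 0.5 h in KO cells (horizontal) and in WT cells (vertical) for the 104 probes called in KO and tested in both, with the dashed line marking equal differences. The 41 probes called in both genotypes (filled) lie in the lower left and upper right. Ringed probes are those whose differences were called as unequal between KO and WT.

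The difference between the genotypes was itself tested, and 80 of 16795 probes were called (0.476%), 52 with the larger value in KO (0.31%) and 28 with the larger value in WT (0.167%). Only 3 were called on the Cy5 arrays alone and 545 on the Cy3 arrays alone. Hamp fell in KO cells and was at 0.19, -0.04 and 0.13 in WT cells at 2 h, against -1.02, -0.62 and -0.58 at 0.5 h. The KO minus WT value of the 2 h against 0.5 h difference was -2.69 ± 0.57 for Hamp (adjusted p = 0.033). For Ifnar1 it was -1.74 ± 0.32 (adjusted p = 0.030), and for Prelid2, a gene related to mitochondrial lipid carriers, -2.06 ± 0.35 (adjusted p = 0.0065). Mx1 was the only member of the interferon list among the 80, with a difference of 0.72 in KO and -0.60 in WT, 1.32 ± 0.30 apart (adjusted p = 0.047). The KO minus WT values of Hamp, Ifnar1 and Mx1 were not called without KO 2 h replicate 3 (adjusted p = 0.064, 0.055 and 0.090). For Mx1 the value was 0.43 on the Cy5 arrays (adjusted p = 1.00) and 2.21 on the Cy3 arrays (adjusted p = 0.0085), and neither dye alone called Hamp or Ifnar1.

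The largest such values came from genes that changed in WT. Cyp2a4, a steroid-hydroxylating P450 with a near-identical relative, was at -0.09, 0.11 and -0.04 in KO cells at 2 h, against -0.00, 0.20 and -0.29 at 0.5 h. In WT cells it was at -3.11, -3.30 and -3.06 at 2 h, against 0.75, 1.23 and 1.31 at 0.5 h, and the differences were 4.28 ± 0.49 apart (adjusted p = 0.00011). For Capn11, a calpain protease, they were 3.54 ± 0.44 apart (adjusted p = 0.00032), and for Cfi, the complement inhibitor factor I, 2.36 ± 0.39 (adjusted p = 0.0062). Cyp2a4 and Capn11 were also called on each dye alone, and Cfi only on the Cy3 arrays (on Cy5 0.67, adjusted p = 0.73).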

How the data were processed

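The deposited values are log2 ratios, 1 per probe and array, normalized by the authors, per the labels against pooled wild-type hepatocyte RNA. The normalization, the log base and the numerator are not given in the sources used here, and the base was inferred from the range (-11.6 to 9.85). Arrays were centred on their medians and the orientations of a replicate averaged. Of 21997 probes, 18385 had both orientations in at least 2 of 3 replicates of both KO groups. limma 3.58.1 in R 4.3.3 fitted 1 mean for each of 10 groups to all 30 replicates (two-sided, Benjamini-Hochberg). Symbols came from the platform annotation, updated through RefSeq, and 5633 probes had none. A gene was read from its probe with values on most arrays. Named genes are, first, the 14 highest and 14 lowest called probes with complete, non-overlapping replicates and 1 sign on both dyes. For these probes the 2 traits were fixed by the choice and do not support the calls. Further named genes are up to 3 called members (else 2) per list, a panel, and the 4 highest and 4 lowest KO minus WT values. Some genes that this rule names are not reported here. Members, lists and the genes printed were chosen with earlier results of these data known. On simulated data for KO 2 h against 0.5 h (16795 probes), 10 of 67 changes of 0.5, 44 of 67 of 1 and 64 of 66 of 2 log2 units were recovered, with 6 false calls. The simulated noise was independent between replicates, with 1 spread per probe in all groups and no dye effect. Measured group SDs ran from 0.17 (KO 2 h) to 0.45 (KO 24 h), so these rates may not hold for the arrays. Alternatives covered centring, dyes, filters, spread, blocks and left-out replicates. The number of arrays limits the precision.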

Additional observations from a re-analysis of the deposited data

Results flagged for a closer look

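These results are given for a closer look because the 2 h against 0.5 h difference was itself tested as unequal in KO and WT cells. The test called 80 probes. Among the genes printed, the KO minus WT value was -2.69 for Hamp, -2.06 for Prelid2, -1.74 for Ifnar1, 1.32 for Mx1, 2.36 for Cfi, 3.54 for Capn11 and 4.28 for Cyp2a4, all with limma's adjusted p under 0.05. Without KO 2 h replicate 3, Hamp, Ifnar1 and Mx1 had adjusted p = 0.064, 0.055 and 0.090, and the other 4 were called. On the Cy5 arrays alone Cyp2a4 and Capn11 were called, whereas Cfi had adjusted p = 0.73, Hamp 0.17, Ifnar1 0.74, Mx1 1.00 and Prelid2 0.070. Strain, with genotype, differs between KO and WT on every array, and the 2 cannot be told apart. Each group has 3 replicates, too few for a test of single outlying samples.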

How the results depend on the processing

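The count for KO 2 h against KO 0.5 h moved with nearly every setting, while the direction of the genes did so mainly with the dyes. The 108 probes became 118 without centring, 422 after scale normalization, 171 with 1 orientation enough, 2051 on the Cy5 arrays alone, 2580 on the Cy3 arrays alone, 4208 with the sign of the Cy3 arrays turned and 332 with the dye profiles removed. They became 137 with all 3 replicates required, 127 with the filter over all 10 groups, 95 with no further filter, 877 with only the groups compared, 1821 with weights by group spread, 690 with the array set as a term, and 19 to 67 without 1 replicate of either time. For WT 2 h against WT 0.5 h, the 2626 probes became 4789 after scale normalization, 1455 on Cy5, 858 on Cy3, 250 with Cy3 turned, 1668 with the dye profiles removed, 6181 with only the groups compared, 7208 with weights, 4202 with the array set, and 1061 to 1712 without 1 WT replicate. For KO minus WT, the 80 probes became 1005 after scale normalization, 186 with 1 orientation, 3 on Cy5, 545 on Cy3, 10 with Cy3 turned, 52 with the dye profiles removed, 50 with the filter over all groups, 2054 with only the groups compared, 2528 with weights, 198 with the array set, and 12 to 51 without 1 replicate. Without WT 0 h replicate 3, a setting chosen, like those without a WT replicate and all those of WT alone, after seeing the data, the counts were 195, 3138 and 171. The causes were not tested.

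With Cy3 turned, 28 of 55 genes in KO cells were reversed: Mx2 at -0.12, Usp18 -0.66, Oas1a -0.063, Ifit1 -0.57, Isg15 -0.41, Trafd1 -0.094, Casp4 -0.44, Fas -0.39, Cxcl9 -0.26, Cxcl10 -0.18, Ifnar1 1.01, Slc7a11 0.62, Fbln5 0.68, Naif1 0.17, Trbv1 0.72, Cyp3a41a -0.69, Serpina3a -0.29, Hc -0.43, Cish -0.22, Uqcrb -0.68, Nfil3 -0.0905, Pfdn5 -0.62, Galnt3 -0.30, Hbegf 0.050, Atf3 -0.42, Alb -0.31, Pik3r1 -0.34 and Gadd45a -0.53. For KO minus WT they were Cyp2a4 at -1.88, Capn11 -0.71, Cfi -1.69, Ifnar1 0.11 and Mx1 -0.89. The other reversals were of genes not called with both dyes averaged, of which Per1 was called on Cy5 alone (-0.84). Fos had 0.20 after scale normalization, 0.21 on Cy3 alone, 0.016 with the dye profiles removed, and -0.11 to 0.13 without 1 replicate. Junb had 0.43 on Cy3 alone and -0.16 to 0.11 without 1 replicate. On Cy3 alone Met had 0.15, Dusp6 0.19 and Per1 0.081, and on Cy5 alone Alb had -0.25.

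The replicate numbers were not used to pair the samples, since the deviations of same-numbered KO replicates correlated at -0.05, -0.04 and 0.05. Those of KO 2 h replicate 1 and KO 0.5 h replicate 2 correlated at 0.13. With the dye effects on these arrays, such values do not show whether cultures share mice. With the replicate block 139 probes were called for KO 2 h against KO 0.5 h, 2385 for WT and 55 for KO minus WT, where Hamp and Mx1 were no longer called.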
